A study of Mus musculus with 8 samples.

Results

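NONCODE long non-coding transcript probes are the array's probes for long RNAs that NONCODE, a public catalogue of non-coding transcripts, lists in the mouse. They were taken as every non-control probe whose deposited name starts with NONMMUT, and a probe was kept where 4 or more of the 8 arrays, of either group, had its spot well above the local background. Of 55362 such probes listed, 7188 (12.98%) were kept, out of 54636 kept among 149782 non-control probes of every kind. The same filter kept 62.1% of 46866 coding probes (those with a RefSeq NM accession), 31.9% of the curated non-coding probes (NR accessions), 19% of the Ensembl-named probes and 43.1% of the probes named by a genomic interval. The rule used no difference between the groups. Each of the 55362 probes carries a catalogue name of its own, so a count of probes is also a count of catalogue transcripts.

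The samples are livers of male mice, 4 labelled control (normal mice) and 4 labelled oxaliplatin, with total RNA hybridised on 1 Agilent one-colour array each. Oxaliplatin is a platinum drug used in colorectal cancer. Here it was injected into the peritoneal cavity once a week for 6 weeks to model hepatic sinusoidal obstruction syndrome, in which the small vessels of the liver are injured. The labels give no strain or age. The comparison addresses how liver RNA levels differ in treated mice. Levels are log2 signals relative to the 75th percentile of all non-control probes of the same array, and a difference is the oxaliplatin mean minus the control mean on that scale. Differences carry their SE and group levels their SD, with n = 4 arrays per group, and a probe passed if its adjusted p in limma, over all 54636 kept probes, was under 0.05.

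A long non-coding RNA is a transcript that is not read into protein. Many are made at low levels and in few cell types. Some lie beside or opposite a coding gene and share its promoter, some host small RNAs such as microRNAs or small nucleolar RNAs in their introns, and a few act in the nucleus on chromatin or splicing. The role of most catalogue entries is not known, and the deposited files give these probes no gene name, no description and no genome position.

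The following 60-base probes carry the largest differences, the smallest p-values or the brightest signals described below, and capitals mark any run of 4 or more C in a row.
NONMMUT105319: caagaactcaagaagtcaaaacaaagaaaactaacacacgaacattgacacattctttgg
NONMMUT078678: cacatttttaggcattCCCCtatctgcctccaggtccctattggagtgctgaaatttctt
NONMMUT111100: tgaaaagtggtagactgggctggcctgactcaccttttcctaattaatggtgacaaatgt
NONMMUT102100: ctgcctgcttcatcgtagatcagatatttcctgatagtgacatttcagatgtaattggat
NONMMUT080661: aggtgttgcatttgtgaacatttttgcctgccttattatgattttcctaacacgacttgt
NONMMUT013860: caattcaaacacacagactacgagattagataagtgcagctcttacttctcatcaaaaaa
NONMMUT003507: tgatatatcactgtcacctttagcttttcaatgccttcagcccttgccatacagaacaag
NONMMUT100794: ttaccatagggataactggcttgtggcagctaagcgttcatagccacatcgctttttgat
NONMMUT121728: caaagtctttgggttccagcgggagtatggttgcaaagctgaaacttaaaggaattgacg
NONMMUT098114: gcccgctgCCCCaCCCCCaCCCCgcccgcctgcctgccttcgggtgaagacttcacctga

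The 75th percentile of the processed signal lay between 43.3 and 53.5 intensity units on the 8 arrays, and arrays correlated with each other at r between 0.94 and 0.99 across kept probes. The 4 arrays of a group share a slide and a scan, and an effect of either cannot be told apart from the group. The deposited files give 6 arrays a first run name and oxaliplatin replicates 1 and 2 a second one. All directions follow the group labels. The p53 targets Cdkn1a (-3.61 ± 0.65, adjusted p = 0.0104), Phlda3 (-3.57 ± 0.17, adjusted p = 0.00054) and Ccng1 (-1.58 ± 0.12, adjusted p = 0.00148), which damage to DNA is known to induce, were lower on the arrays labelled oxaliplatin. That is opposite to the direction known for a drug that damages DNA, and whether the labels of the 2 slides are right was not tested; were they exchanged, every direction given here would turn. As a check of the tissue, all 10 hepatocyte markers were measured, with levels from 6.396 to 11.3. Of these 5 were higher and 0 lower, and their mean level was 9.841 to 9.935 on control and 10.11 to 10.25 on oxaliplatin arrays, without overlap. Of other cell types, 4 of 5 measured platelet markers were lower (median -1.79), and 4 of 6 erythroid markers were higher and 1 lower (median 1.53). Of T and NK cell markers 2 of 6 were higher (median 0.42), and 3 of 8 endothelial markers were lower (median -0.18). Of 7 Kupffer cell and macrophage markers 1 was higher and 1 lower (median 0.59). Of 5 neutrophil markers 0 passed (median -1.41), and of 3 B and plasma cell markers 0 passed (median 1.22). Stellate and cholangiocyte markers had 0 calls (medians -0.02 and 0.06). Over all kept probes 7.42% were higher and 11% lower. The mean level of the platelet markers ranged from 1.75 to 3.37 on control arrays and from 0.67 to 0.97 on oxaliplatin arrays. That of the erythroid markers ranged from 3.63 to 4.80 and from 4.79 to 5.43. The part of these cells in the differences of the NONCODE probes was not tested, and in whole liver RNA fewer cells of a type and less RNA per cell cannot be told apart.

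NONCODE probes were mostly dim. A single array had between 8.63% and 16.6% of the 55362 probes well above background, against 53.8% to 64.9% of the coding probes. On control arrays the shares were 16.6%, 14.3%, 12.9% and 12.7%. On oxaliplatin arrays they were 12.99%, 8.63%, 15.99% and 13.3%, and the groups overlapped. The lowest, oxaliplatin replicate 2, also had the lowest share of coding probes above background. The mean share was 12.7% ± 3.0 after oxaliplatin and 14.1% ± 1.8 in control (SD, n = 4). An exact, two-sided permutation test gave p = 0.486, where 0.0286 is the smallest the design can give. On no array were 41776 of the NONCODE probes (75.5%) above background, and 3923 (7.09%) were so on all 8. At the edge of the filter, 791 probes were above background on 3 arrays (median level -1.74) and stayed out, and 657 were so on 4 arrays (median level -1.49) and were kept. Of the kept probes, 147 were above background on all 4 control arrays and no oxaliplatin array, and 7 showed the opposite. The lowest level that counted as above background was -2.25 to -1.68 on control arrays. It was -1.15, -0.45, -1.71 and -1.42 on oxaliplatin replicates 1 to 4, so the cut was not the same in the 2 groups. No such counts are given for other kinds of probe, and nothing is read from the split.

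Of the 7188 kept NONCODE probes, 1064 (14.8%) were higher and 563 (7.83%) lower on oxaliplatin arrays, and 5561 did not pass. Over all 54636 kept probes 7.42% were higher and 11% lower, and over the 29116 coding probes 6.21% and 10.8%. Of the called NONCODE probes 65.4% were higher, against 36.5% of the called coding probes. The Ensembl-named probes were nearly the same as the NONCODE probes in these shares: 15.4% of 1577 were higher and 9.829% lower, and 61.1% of their calls were higher. At least 2-fold differences among called probes numbered 370 higher and 188 lower, where the background was 2.36% and 2.43% of all probes. The groups did not overlap for 1288 probes that were higher and 761 that were lower, against 9.83% and 17.2% of all kept probes. Together they are 28.5%, which is near the 27% of all kept probes. A probe that passed the filter through 1 group alone had to differ. Among the 3923 NONCODE probes above background on all 8 arrays, 842 (21.5%) were higher and 296 (7.55%) lower when only such probes of every kind were tested, where the background was 9.16% and 13.4%.

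**Figure D1:**
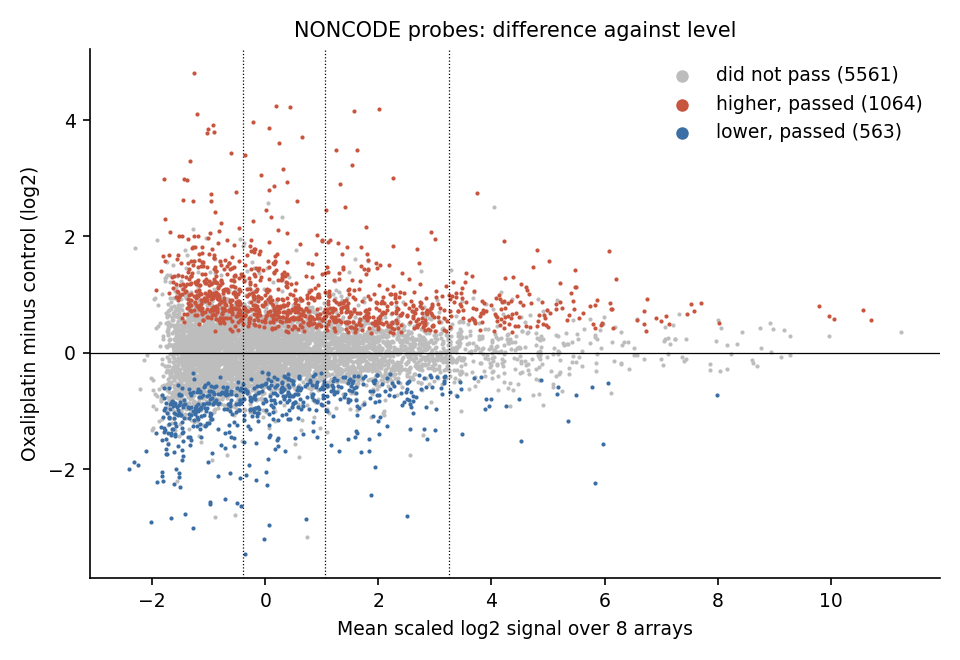
Each point is 1 of 7188 NONCODE probes, with its mean scaled log2 signal over 8 arrays on the horizontal axis, its oxaliplatin minus control difference (log2) on the vertical axis, and dotted lines at the edges of the 4 signal bands. The 1064 red points passed as higher and the 563 blue ones as lower under the scaling to the 75th percentile. With arrays centred on the median of all probes the split turned to 247 and 3824, where 69.3% of all kept probes were lower.

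The split of the calls depends on how the arrays are scaled. The median difference was 0.07 for NONCODE probes, 0.06 for Ensembl-named probes, -0.09 for coding probes and -0.09 for all kept probes. With the 75th percentile taken over coding probes the median of all probes moved to 0.02, and 80.3% of the called NONCODE probes were higher (1301 against 319); over probes detected on all arrays the share was 79.7%. Centring each array on the median of all its probes, most of them dim, moved the median of all probes to -0.72 and left 6.07% of the calls higher (247 against 3824). Of all kept probes 1.52% were then higher and 69.3% lower. Without the filter, where 55362 dim and bright probes were tested, the share was 94.5% (9468 against 549) and the median of all probes 0.44. Of all probes tested in that setting 12.2% were higher and 2.55% lower. The distance between NONCODE and coding probes does not move with a scaling constant. The NONCODE median exceeded the coding median by 0.16, by 0.12 after another background correction (normexp) and by 0.10 after quantile normalisation, and over the 8 settings that leave out 1 array by 0.12 to 0.20.

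Calls also depended on single arrays. Without control replicate 3 the numbers were 650 higher and 314 lower, and without oxaliplatin replicate 3 they were 606 and 351. Over all kept probes the shares fell as well, to 4.2% higher and 4.6% lower in the first fit and 3.85% and 5.39% in the second. The lower probes also dropped without oxaliplatin replicate 2 (362) or replicate 4 (375), where 6.06% and 6.37% of all kept probes were lower. On the 6 arrays of the first run name alone 430 were higher and 202 lower, while a fit that holds the run name constant gave 499 and 172, and in both the distance to the coding median was 0.18. These are 5.98% and 2.81% of the NONCODE probes on the 6 arrays, against 2.46% and 2.685% of all kept probes. In the fit with the run name they are 6.94% and 2.39%, against 3.08% and 2.87%.

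The excess of higher calls grew with signal. All kept probes were divided into 4 bands of equal number by mean level, at -0.39, 1.06 and 3.25. In the dimmest band, which holds 2879 NONCODE probes, 11.4% were higher and 8.06% lower, close to the 11.03% and 8.34% of coding probes there. In band 2, 13.5% of 2279 NONCODE probes and 8.61% of 5239 coding probes were higher. In band 3 the shares were 18.6% of 1529 and 5.40% of 8337. In the brightest band 28.5% of 501 NONCODE probes were higher and 4.79% lower, against 4.17% and 11.7% of 11749 coding probes. Ensembl-named probes had 13.9%, 15.2% and 16.4% higher in the first 3 bands, near the NONCODE shares. The 149 of the brightest band had 20.1% higher and 16.8% lower, and the 98 curated non-coding ones 14.3% and 20.4%. From dimmest to brightest band, the median NONCODE difference was 0.04, 0.06, 0.08 and 0.20, and the coding one 0.02, -0.03, -0.10 and -0.13. With normexp background correction the NONCODE median in band 3 was -0.0027, and median centring made all 4 negative.

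**Figure D2:**
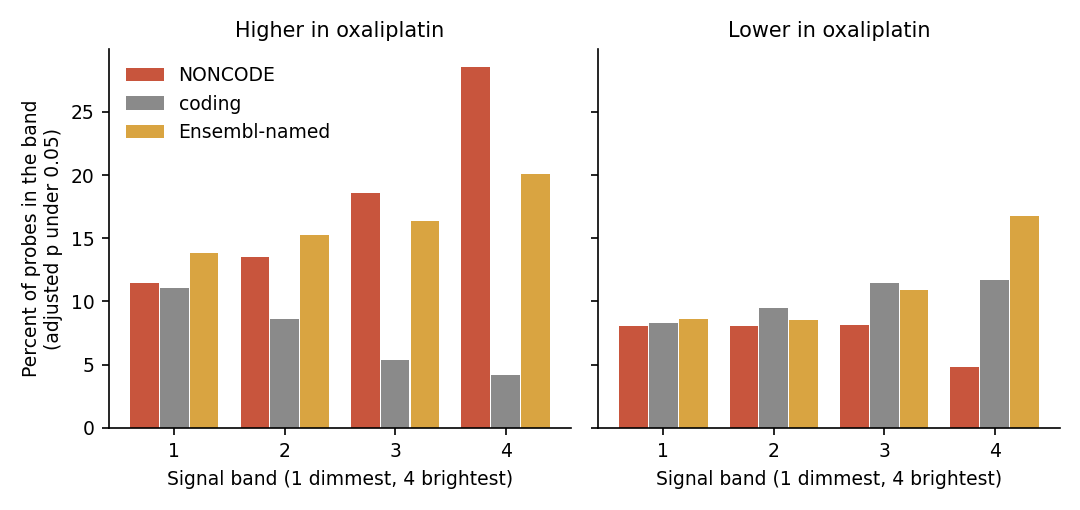
Bars give the percent of probes in each signal band that passed as higher (left) or lower (right) on oxaliplatin arrays, for NONCODE, coding and Ensembl-named probes. The higher share of NONCODE probes goes from 11.4% in the dimmest band to 28.5% in the brightest, while that of coding probes goes from 11.03% to 4.17%; under median centring the brightest NONCODE band had 3.19% higher and 47.9% lower.

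Array by array, the gap between the classes was taken as the median deviation of NONCODE probes from their own 8-array means minus that of coding probes. In the brightest band it was -0.11, -0.16, -0.26 and -0.19 on control replicates 1 to 4, and 0.24, 0.13, 0.16 and 0.12 on oxaliplatin replicates 1 to 4. Those 2 sets do not overlap, and neither do those of band 3, with -0.19 to -0.01 on control and 0.09 to 0.11 on oxaliplatin arrays. In band 2 and band 1 the groups overlapped. The oxaliplatin arrays of both run names lay above all control arrays in band 3 and band 4. The probes of the dimmest band also varied most, with a median SD within groups of 0.40 against 0.19 in the brightest band, and coding probes had nearly the same spread (0.41 and 0.18).

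**Figure D3:**
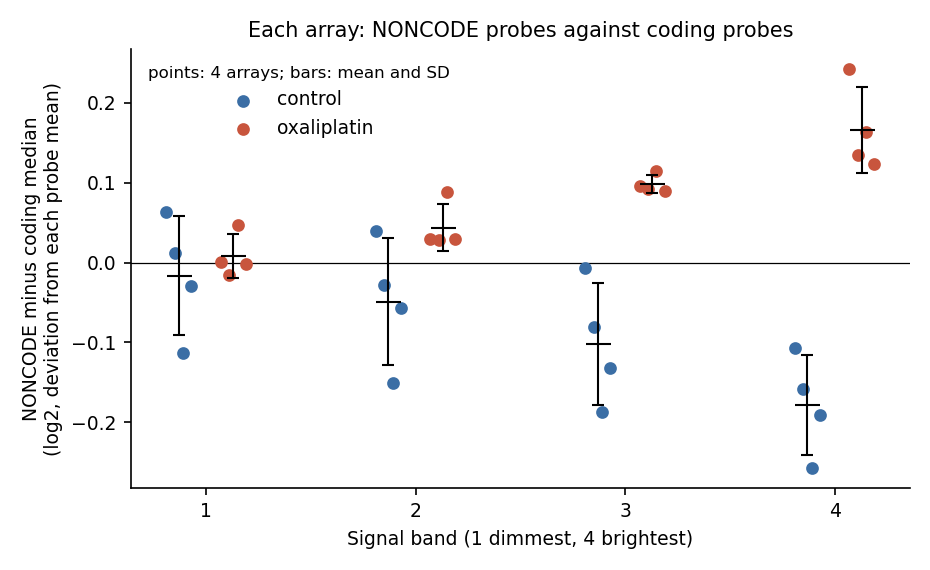
Each point is 1 array, and its height is the NONCODE median minus the coding median (log2, as deviations from each probe's mean) within a signal band, with black bars for the mean and SD of 4 arrays. In band 4 the control arrays lie between -0.26 and -0.11 and the oxaliplatin arrays between 0.12 and 0.24.

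The 10 probes with the largest fitted rises were taken by the naming rule. Where none of the control arrays was above background the fitted difference only set the choice of the probe, and a bound is given in its place. Such a probe passed the filter through 1 group alone. The adjusted p printed beside a bound, here and below, belongs to the fitted difference and says nothing on the bound. NONMMUT105319 had levels of -4.19, -2.80, -3.88 and -3.78 on the control arrays and of 1.03, 1.26, 1.22 and 1.07 on the oxaliplatin arrays. It was above background on no control array and on every oxaliplatin array, and so was at least 7.98-fold higher (adjusted p = 0.00093). This bound is taken against a mean over the 4 arrays of the lower group. Into that mean went, for each array, the lowest level that counted as above background. NONMMUT078678 had control levels of -0.44, 1.31, 0.17 and -1.41 and oxaliplatin levels of 4.22, 3.16, 4.53 and 4.49, a rise of 4.20 ± 0.55 (adjusted p = 0.00418), and was above background on 3 control arrays. NONMMUT104397 rose by 4.16 ± 0.54 (adjusted p = 0.00418), from -0.51 ± 1.18 to 3.64 ± 0.55 (SD, n = 4). In both, control replicate 2 was the highest and replicate 4 the lowest control, and oxaliplatin replicate 2 the lowest treated array, with no overlap of the groups. NONMMUT012919 showed that order too, with controls at -1.48, 0.04, -1.41 and -3.84 and oxaliplatin arrays at 3.14, 1.44, 2.75 and 2.90. NONMMUT132861, NONMMUT007729, NONMMUT081147 and NONMMUT118154 rose by between 3.87 and 4.24, and in each the control arrays spread more widely than 2 log2 units. NONMMUT132861 was above background on 2 control arrays and the others on 1. Control levels this low lie near the background, and over 19 alternatives the difference of NONMMUT078678 ran from 2.82 to 4.66, with the call kept in each.

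The remaining 2 rises have consecutive catalogue numbers and probes that overlap. Capitals mark the 52 bases that both hold.
NONMMUT113413: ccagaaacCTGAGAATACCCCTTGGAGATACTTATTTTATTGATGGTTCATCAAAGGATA
NONMMUT113414: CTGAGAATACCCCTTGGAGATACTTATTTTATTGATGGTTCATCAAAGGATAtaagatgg
NONMMUT113414 was not above background on any control array and was at least 6.47-fold higher (adjusted p = 0.00569), with oxaliplatin levels of -0.94, 0.61, 1.58 and 2.13. NONMMUT113413 went from -2.80 ± 1.21 to 0.99 ± 1.48 (SD, n = 4), a rise of 3.796 ± 0.797 (adjusted p = 0.0167), and was above background on 1 control array. Both were lowest on oxaliplatin replicate 1 among the treated arrays, and they are 2 readings of nearly the same letters rather than separate findings.

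The 10 probes with the largest fitted falls were taken in the same way, and 4 of them were above background on no oxaliplatin array, so that only a bound is given. NONMMUT013860 had control levels of 0.90, 1.55, 0.46 and 2.56 and oxaliplatin levels of -1.91, -1.96, -2.51 and -1.98. It was above background on all control arrays and no oxaliplatin array, and was at least 5.85-fold lower (adjusted p = 0.00333). NONMMUT003507 was the brightest of the 10, with control levels of 2.92, 3.36, 4.27 and 5.05 and oxaliplatin levels of 1.67, 0.44, 1.004 and 1.29. It was above background on all 8 arrays, fell by 2.80 ± 0.46 (adjusted p = 0.00776) and kept its call under all 20 alternatives. NONMMUT023380 and NONMMUT023381 carry consecutive numbers, and the first probe ends with the 6 bases that open the second.
NONMMUT023380: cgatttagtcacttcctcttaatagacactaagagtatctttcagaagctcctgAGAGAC
NONMMUT023381: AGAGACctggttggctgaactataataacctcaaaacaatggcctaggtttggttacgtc
NONMMUT023381 fell by 2.86 ± 0.57 (adjusted p = 0.0142), from control levels of 1.71, 1.93, 1.48 and 3.48 to oxaliplatin levels of 0.30, 0.03, -1.63 and -1.55. NONMMUT023380 was at least 1.91-fold lower (adjusted p = 0.0142), above background on every control array and on no oxaliplatin array. Their levels correlated at r = 0.99 over the 8 arrays, which fall into 2 groups. Control replicate 4 was the highest array for all of the 10 falls except NONMMUT080319, which was highest on control replicate 3. NONMMUT080319 and NONMMUT088194 were at least 1.53-fold and 2.83-fold lower. Without control replicate 3 the calls of NONMMUT124329, NONMMUT119680 and NONMMUT094071 ended, and that of NONMMUT094071 also ended without control replicate 4 or oxaliplatin replicate 2, 3 or 4.

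**Figure D4:**
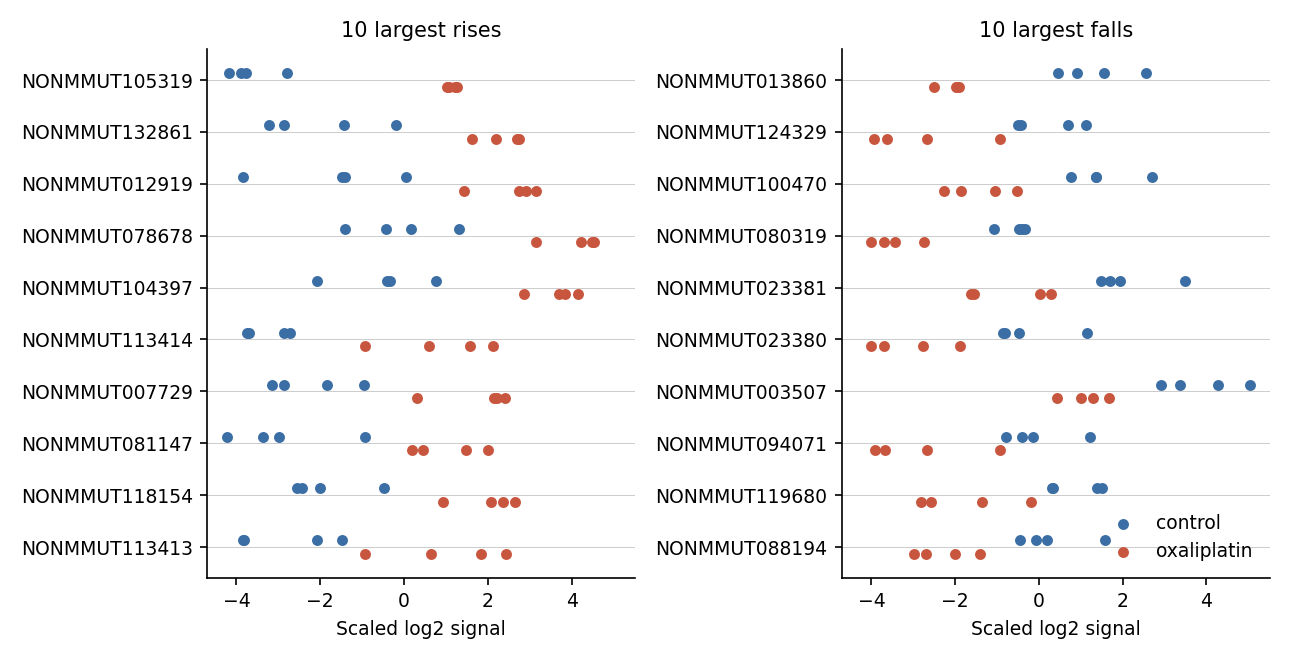
Each point is the scaled log2 signal of 1 array for the 10 largest fitted rises (left) and the 10 largest fitted falls (right) among called NONCODE probes whose groups did not overlap, blue for control and red for oxaliplatin. NONMMUT105319 is between -4.19 and -2.80 on control and between 1.03 and 1.26 on oxaliplatin arrays, and NONMMUT003507 between 2.92 and 5.05 and between 0.44 and 1.67.

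Probes with the smallest p-values were steadier within groups, which a choice by p favours. NONMMUT111100 had control levels of -0.44, -0.58, -0.30 and -0.67 and oxaliplatin levels of 2.31, 2.75, 3.34 and 3.53, a rise of 3.48 ± 0.26 (adjusted p = 0.00148). NONMMUT102100 rose by 2.61 ± 0.18 (adjusted p = 0.00148), from -0.74 ± 0.36 to 1.87 ± 0.09 (SD, n = 4). NONMMUT080661 went from between -1.32 and -1.15 on control arrays to between 0.51 and 0.92 on oxaliplatin arrays, a rise of 1.94 ± 0.12 (adjusted p = 0.00122). These 3 were above background on all 8 arrays and kept their call under all 20 alternatives. NONMMUT104369 rose by 1.79 ± 0.13 (adjusted p = 0.00148) and was above background on 2 control arrays.

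The brightest members moved little in size. NONMMUT110472, the brightest at 11.2, was at 11.09, 11.17, 11.18 and 10.83 on control and 11.38, 11.41, 11.39 and 11.52 on oxaliplatin arrays, a difference of 0.36 ± 0.11 that did not pass (adjusted p = 0.0588). NONMMUT100794 rose by 0.56 ± 0.10 (adjusted p = 0.011) and NONMMUT121728 by 0.74 ± 0.11 (adjusted p = 0.00521), and no control array reached the lowest oxaliplatin array in either. NONMMUT109353 (0.58 ± 0.10, adjusted p = 0.00962) and NONMMUT077486 (0.63 ± 0.14, adjusted p = 0.0217) passed as well. On the 6 arrays of the first run name NONMMUT100794, NONMMUT109353 and NONMMUT077486 did not pass, and NONMMUT077486 also missed the threshold without oxaliplatin replicate 3 or 4. Under median centring NONMMUT110472, NONMMUT100794 and NONMMUT109353 turned to -0.27, -0.06 and -0.05, and NONMMUT121728 (0.11) and NONMMUT077486 (0.00074) lost their calls. NONMMUT077486 also missed the threshold after quantile normalisation, without the filter and with the run name held constant. NONMMUT109353 missed it with the run name held constant too. A fit with the replicate number as a block ended the calls of NONMMUT100794 and NONMMUT077486. NONMMUT110472, which did not pass in the main fit, passed in 4 of 20 alternatives. The letters of NONMMUT100794 and NONMMUT121728, printed above, resemble stretches of the 28S and 18S ribosomal RNA as textbooks give them. No ribosomal sequence was aligned here. The source of the signal was not tested for any of the 5 brightest probes, and NONMMUT110472 is among them. Naming NONMMUT100794 and NONMMUT121728 does not set the others of the 5 apart from ribosomal RNA. The array's own probes for 18S ribosomal RNA (Rn18s) rose by 0.39 ± 0.10 and 0.45 ± 0.10 (adjusted p = 0.0287 and 0.0207) from levels of 10.5 and 11.1, a 28S probe (Rn28s1) rose by 1.21 ± 0.30 (adjusted p = 0.0273), and the precursor (Rn45s) gave 0.39 ± 0.13 in a probe that did not pass (adjusted p = 0.0747) and fell by 0.57 ± 0.15 in another (adjusted p = 0.0328).

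Base composition of the probe moved with the difference; this was examined after the values had been seen and is given as a description. NONCODE probes with 22 or more A among their 60 bases were higher in 26.1% and lower in 3.01% of 697 cases, with a median difference of 0.33. Those with 9 or fewer A were higher in 10.8% and lower in 14.1% of 519 cases, with a median of -0.04. Of coding probes 14.2% were higher and 4.14% lower of 4373 at 22 or more A, and 6.005% and 18.1% of 816 at 9 or fewer, with the lowest higher share, 3.43%, at 13 to 15 A. In each of 6 classes of A content the NONCODE median lay above the coding median. Across probes, the number of A correlated with the difference at r = 0.20 (Spearman 0.19) in NONCODE and r = 0.20 (Spearman 0.23) in coding probes. In the dimmest band r was 0.34 and 0.36, and in the brightest -0.04 and 0.16. Probes share the arrays and their depth, so these values carry no p. The gap between NONCODE probes with 22 or more A and those with 12 or fewer was 0.38, but 0.18 among probes above background on all 8 arrays, 0.15 after normexp and 0.62 without the filter.

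**Figure D5:**
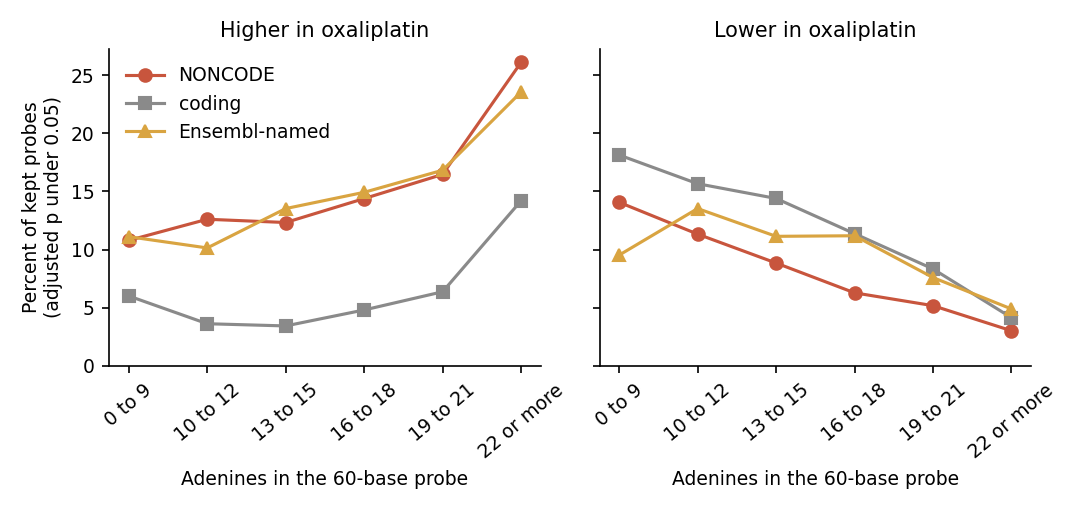
Points give the percent of kept probes that passed as higher (left) or lower (right) on oxaliplatin arrays, by the number of adenines in the 60-base probe, for NONCODE, coding and Ensembl-named probes. At 22 or more adenines 26.1% of NONCODE and 14.2% of coding probes were higher, against 10.8% and 6.005% at 9 or fewer.

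A run of 4 C, written CCCC and searched on the probe strand as printed, went with the rises of bright probes. It was present in 9.51% of the 55362 listed NONCODE probes and 9.37% of the listed coding probes. Among kept probes the classes differed, with 19.7% of NONCODE, 17.8% of Ensembl-named, 14.5% of interval-named and 10.06% of coding probes. Of 1419 kept NONCODE probes with CCCC, 22.2% were higher and 3.52% lower, against 12.98% and 8.89% of the 5769 without. In the brightest band 44.3% of 131 probes with CCCC were higher, against 23.0% of 370 without. Coding probes of that band had 7.79% of 1155 and 3.78% of 10594, interval-named probes 19.4% of 248 and 7.55% of 914, and Ensembl-named probes 33.3% of 27 and 17.2% of 122. The opposite run, GGGG, gave 10.8% higher of 592 NONCODE probes and 15.2% of 6596 without it. In the brightest band these shares were 11.6% of 43 and 30.1% of 458. CCCC was not the only run that went with rises. Of 2247 NONCODE probes with AAAA 19.1% were higher and 4.76% lower, against 12.85% and 9.23% of 4941 without. Their median differences were 0.19 and 0.01. In the brightest band AAAA set probes less apart, with 32.65% of 147 higher against 26.8% of 354. Coding probes with and without AAAA had medians of -0.002 and -0.14. The median difference of NONCODE probes with CCCC exceeded that of the others by 0.17, by 0.07 after normexp, and was below it by 0.04 without the filter.

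On every array the same contrast could be read. The median deviation of NONCODE probes with CCCC minus that of probes without was -0.09, -0.04, -0.04 and -0.18 on control replicates 1 to 4 and 0.09, 0.06, 0.08 and 0.10 on oxaliplatin replicates 1 to 4. Coding probes gave -0.02, -0.02, -0.04 and -0.11 on control and 0.06, 0.03, 0.05 and 0.04 on oxaliplatin arrays. The groups do not overlap in either class, and control replicate 4 is the lowest array in both. Among the brightest called NONCODE probes with CCCC, NONMMUT098114, printed at the start, was at 9.41, 9.55, 9.38 and 9.26 on control and 10.16, 10.21, 10.22 and 10.21 on oxaliplatin arrays, a rise of 0.80 ± 0.10 (adjusted p = 0.00399). NONMMUT137212 rose by 0.92 ± 0.14 (adjusted p = 0.00671) and NONMMUT126200 by 0.75 ± 0.11 (adjusted p = 0.00582), from 5.75 ± 0.16 to 6.50 ± 0.06 (SD, n = 4). Their C runs are in capitals.
NONMMUT137212: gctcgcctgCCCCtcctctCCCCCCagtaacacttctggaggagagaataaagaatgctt
NONMMUT126200: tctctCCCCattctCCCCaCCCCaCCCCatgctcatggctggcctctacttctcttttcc
Kept NONCODE probes had a median GC content of 43.3%, against 41.7% over all listed ones and 40% for kept coding probes.

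Probes that share letters were set side by side. Sharing letters does not show that 2 probes read the same RNA. Probes with nearly the same letters on the same arrays must read alike, so their agreement is no independent check. The files place no NONCODE probe on the genome, so shared sequence was used in place of position. With at least 25 identical bases on the same strand, 14 kept NONCODE probes overlapped kept probes of curated non-coding genes in 15 pairs. The 2 differences of a pair had the same sign in 15 of 15 pairs, and their median distance was 0.08. With Ensembl-named probes there were 54 such pairs, of which 51 had the same sign, with a median distance of 0.12. Pairs of 2 NONCODE probes had the same sign in 68 of 96 cases, with a median distance of 0.20, and pairs with coding probes in 4 of 7. Differences correlated at r = 0.96 (Spearman 0.94) over the 15 pairs, r = 0.91 (Spearman 0.92) over the 54 and r = 0.86 (Spearman 0.71) over the 96, where both probes of a pair read the same arrays and mostly the same letters. In 0 of these pairs were both probes called in opposite directions.

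Mir22hg, the host transcript of microRNA miR-22, shows such a pair, with the 37 shared bases in capitals.
NONMMUT083951: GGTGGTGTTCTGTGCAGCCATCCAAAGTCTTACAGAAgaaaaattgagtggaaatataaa
Mir22hg probe: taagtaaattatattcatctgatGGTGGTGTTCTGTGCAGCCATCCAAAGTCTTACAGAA
NONMMUT083951 was at 5.57, 5.78, 5.44 and 5.06 on control and 4.66, 5.07, 4.99 and 4.81 on oxaliplatin arrays, a fall of 0.58 ± 0.17 (adjusted p = 0.0468) with overlapping groups. The Mir22hg probe was at 5.54, 5.87, 5.68 and 5.23 and at 4.64, 5.07, 5.02 and 4.82, and fell by 0.69 ± 0.16 (adjusted p = 0.0241). NONMMUT009892 and NONMMUT085264 both overlap the probe of 2010001A14Rik, by 57 and 59 bases, and fell by 0.49 ± 0.09 and 0.44 ± 0.12 (adjusted p = 0.0127 and 0.0352), beside a fall of 0.46 ± 0.11 in that probe (adjusted p = 0.0221). NONMMUT105384 and the probe of Gm9895 share 47 bases and fell by 0.99 ± 0.17 and 0.65 ± 0.13 (adjusted p = 0.00905 and 0.016). NONMMUT006141 and the C730027H18Rik probe share 59 bases; the first fell by 0.74 ± 0.22 (adjusted p = 0.0454), while the second, at -0.68 ± 0.21, missed the threshold (adjusted p = 0.0574). NONMMUT021163 and the probe of Dleu2, a host of microRNAs miR-15a and miR-16-1, gave 0.24 ± 0.46 and 0.25 ± 0.45, neither of which passed.

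Members overlap each other too. Of the kept probes, 220 share at least 25 bases on the same strand with another listed NONCODE probe. With 1 probe for each group of kept members that share sequence, 7098 remained, of which 1051 were higher and 561 lower. Catalogue numbers that follow each other also went together. Over 996 pairs of kept probes with consecutive numbers the differences correlated at r = 0.36 (Spearman 0.27), and at r = 0.33 over the 965 pairs that share no 25 bases. The correlation was 0.20 for numbers 2 apart, 0.12 for 3 apart and 0.004 for 100 apart. Both probes of a consecutive pair passed in the same direction in 48 pairs and in opposite directions in 9.

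A search of RefSeq promoter windows (GRCm38.p6, 250 bases before to 50 after the gene start) for at least 30 identical bases found 349 listed and 72 kept NONCODE probes. Of the kept ones, 4 matched windows on more than 1 chromosome. Among those matching 1 chromosome, 40 ran opposite to the gene, of which 7 were higher and 6 lower, and 32 ran in its direction, of which 4 were higher and 1 lower. A probe that touches the windows of divergent genes counts in both. Over all kept probes 7.42% were higher and 11% lower, and over NONCODE probes 14.8% and 7.83%, and with counts this small nothing is read from the shares. The called probes with a measured gene at the match are described, and 4 are shown, with the matched bases in capitals. A match of letters does not place the transcript.
NONMMUT116098: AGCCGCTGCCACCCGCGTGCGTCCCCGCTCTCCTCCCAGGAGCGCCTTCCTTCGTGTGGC
NONMMUT105104: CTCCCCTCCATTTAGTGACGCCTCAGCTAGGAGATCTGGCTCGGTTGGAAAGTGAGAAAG
NONMMUT079683: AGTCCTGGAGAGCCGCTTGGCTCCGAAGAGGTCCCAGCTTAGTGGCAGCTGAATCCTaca
NONMMUT112177: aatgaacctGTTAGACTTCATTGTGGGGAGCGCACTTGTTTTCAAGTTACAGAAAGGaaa

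NONMMUT116098 matched chr4:156234901-156234960, upstream of and opposite to Klhl17, which encodes a kelch-like protein. It was at 5.29, 5.48, 5.40 and 5.17 on control and 6.19, 6.24, 6.16 and 5.96 on oxaliplatin arrays, a rise of 0.80 ± 0.12 (adjusted p = 0.0054), while Klhl17 gave -0.26 ± 0.15 (adjusted p = 0.229). NONMMUT105104 matched chr19:5913013-5913072 opposite to Dpf2, a subunit of chromatin remodelling complexes, and rose by 0.68 ± 0.16 (adjusted p = 0.0259), beside -0.26 ± 0.11 for Dpf2 (adjusted p = 0.126). NONMMUT079683 matched 57 bases at chr10:7212387-7212443 opposite to Cnksr3, a scaffold protein gene, and fell by 0.80 ± 0.20 (adjusted p = 0.0286), beside -0.14 ± 0.11 for Cnksr3 (adjusted p = 0.41). NONMMUT112177 matched 48 bases at chr3:131491565-131491612 opposite to Sgms2, a sphingomyelin synthase gene, and was above background on all control arrays and no oxaliplatin array. It was at least 1.135-fold lower (adjusted p = 0.0352), beside -0.07 ± 0.23 for Sgms2 (adjusted p = 0.848). The 34 matched bases of NONMMUT101654 lie at chr17:3557824-3557857, upstream of Tfb1m on its strand and opposite to the first bases of 1700102H20Rik. Its levels were -1.51, -0.19, -0.86 and -2.54 on control and 1.88, 0.52, 1.88 and 2.10 on oxaliplatin arrays, a rise of 2.87 ± 0.52 (adjusted p = 0.0107), whereas Tfb1m, a mitochondrial ribosomal RNA methyltransferase gene, fell by 0.49 ± 0.12 (adjusted p = 0.0254). NONMMUT101872, opposite to the zinc finger gene Zfp983 and matching a second place on that chromosome, fell by 0.59 ± 0.17 (adjusted p = 0.0398), and Zfp983 fell as well, by 0.45 ± 0.12 (adjusted p = 0.0347). NONMMUT010262, opposite to the dynein gene Dnah9, rose by 0.68 ± 0.15 (adjusted p = 0.0211), beside 0.65 ± 0.28 for Dnah9 (adjusted p = 0.13). NONMMUT132135, opposite to Ecsit, fell by 0.66 ± 0.19 (adjusted p = 0.0433), beside -0.06 ± 0.12 for Ecsit (adjusted p = 0.761). Over 19 pairs of a probe and the gene it ran opposite to, 11 had differences of the same sign, and over 16 pairs in the gene's direction 8 had.

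A list of well-studied long non-coding genes, which the array names by gene, was read beside the NONCODE probes. Of 57 on the list 38 were found on the array and 29 were measured, of which 1 was higher, 5 were lower and 23 did not pass, with a median difference of -0.30 against -0.09 over all probes, of which 7.42% were higher and 11% lower. Scaled to coding or to detected probes, 2 were higher and 2 lower. Meg3, an imprinted transcript of the Dlk1-Dio3 locus, rose by 1.90 ± 0.48 (adjusted p = 0.0299), from control levels of 0.24, 0.68, 1.85 and -0.44 to oxaliplatin levels of 2.73, 3.14, 2.37 and 1.69, and its groups overlapped. Snhg5, a host of small nucleolar RNAs, was at 4.74, 4.71, 4.66 and 6.27 on control and 3.56, 4.11, 3.46 and 3.87 on oxaliplatin arrays, and fell by 1.35 ± 0.36 (adjusted p = 0.0347). Lncpint (-0.63 ± 0.15, adjusted p = 0.0218), Peg13 (-0.49 ± 0.11, adjusted p = 0.0227) and Firre (-0.76 ± 0.18, adjusted p = 0.0247) fell, as did Mir22hg. Firre has 3 probes, whose differences ran from -0.76 to 0.28, and the brightest was used. Ftx (-0.48 ± 0.15, adjusted p = 0.0566) and Snhg14 (-0.86 ± 0.27, adjusted p = 0.0574) missed the threshold, and the other Ftx probe gave 1.49. The abundant nuclear transcripts Malat1 (-0.30 ± 0.14, adjusted p = 0.148) and Neat1 (-0.07 ± 0.33, adjusted p = 0.897) did not pass. On the 6 arrays of the first run name 0 of the list passed, and in the fit with the run name held constant 0 did. Of all kept probes 2.46% were higher and 2.685% lower on those arrays, and 3.08% and 2.87% in that fit. The Meg3 call ended without control replicate 1, 2 or 4 and without oxaliplatin replicate 1, 2 or 3, and the lower calls numbered 1 to 3 without any single oxaliplatin array and 2 without control replicate 3.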

How the data were processed

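The intensity values were deposited by the authors as scanner output of 8 one-colour (Cy3) arrays. Per the file headers, images were read with Feature Extraction 12.0.3.1 and annotated on build mm9, and the processed signal is background-subtracted and not scaled between arrays; limma and Agilent Feature Extraction 10.7 are the tools in the submitters' processing notes. Of the other deposited columns, flags of 0 or 1 were used that mark a spot as outlying, saturated or well above background. No non-control spot was saturated. A deposited series matrix holds no NONCODE probe and was not used.

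The log2 processed signal was scaled to each array's 75th percentile over non-control probes, and outlier spots were left out (47 for NONCODE probes, 7 among those kept). limma 3.58.1 (lmFit, then eBayes; R 4.3.3) tested oxaliplatin against control, and p-values were adjusted by Benjamini-Hochberg over 54636 probes. Residual and prior degrees of freedom were 6 and 2.76. The steps were also run on simulated arrays with independent noise and no effect of a slide, which does not test the calls made here. The labels call the samples biological replicates. The p-values set the difference between the groups against the spread among the 4 animals within each group. As each group has its own slide, an effect of the slide would enter the difference and not that spread. Same-numbered samples did not deviate together (r = -0.22, 0.02, -0.08 and -0.16), so the numbers pair nothing. Python 3.11.15, pandas 2.3.3, numpy 2.4.6 and matplotlib 3.10.9 were used for the rest.

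The members and lists were chosen with earlier results of these data known. Named are the 10 largest rises and falls among called members with no overlap of the groups and signal above background on each array of the group with the higher level, the 5 brightest, the 5 with the smallest adjusted p (ties by p), and members with shared sequence or C runs, added after their values were seen. The nearest coding probe could not be named, as the files give members no position. Of the other non-coding genes, those with the smallest adjusted p are named, and Malat1 and Neat1 were added. Sequences are from the deposited files; promoter windows are from RefSeq (GRCm38.p6). A symbol with several probes is represented by its brightest. The array number limits the precision.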

Additional observations from a re-analysis of the deposited data

Results flagged for a closer look

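In a group of 4 arrays, a value was set aside when its gap to the nearest array was a larger share of the group's range than Dixon's 95% critical value; 72 groups were screened and chance alone gives about 1 in 20. NONMMUT007729 was at 0.31 on oxaliplatin replicate 1, while the other 3 oxaliplatin arrays lay between 2.15 and 2.42. NONMMUT013860 was at -2.51 on oxaliplatin replicate 3, below the other 3 at -1.98 to -1.91, and was not above background on any of them. The NONCODE minus coding median of signal band 2 was 0.088 on oxaliplatin replicate 3, above 0.028 to 0.029 on the other 3.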

How the results depend on the processing

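The sign of many differences rests on the scaling. A scaling constant cannot move the distance between NONCODE and coding probes, so settings that change only that constant do not test it. The distance was 0.16 in the main fit, 0.12 after normexp, 0.10 after quantile normalization and 0.47 without the filter on dim probes. In the other settings it lay between 0.12 and 0.22. Median centring gave 247 higher and 3824 lower probes, a median of -0.56, band medians of -0.59, -0.57, -0.55 and -0.43, 24 lower genes of the other non-coding list, and values of -0.063, -0.049 and -0.27 for NONMMUT100794, NONMMUT109353 and NONMMUT110472. With the 75th percentile over coding probes 319 were lower, the median was 0.18, the medians of bands 2 to 4 were 0.17, 0.19 and 0.31, and the other list had 2 higher and 2 lower. Over detected probes these values were 337, 0.18, 0.17, 0.19 and 0.31, and again 2 and 2. After normexp 602 were higher, the median was 0.0072, bands 3 and 4 were at -0.0027 and 0.11, and the other list had 9 lower. Quantile normalization put bands 3 and 4 at 0.14 and 0.29. Without the filter 9468 were higher, the median was 0.58 and the CCCC gap -0.041; with signal on all 8 arrays 296 were lower. The first run name alone gave 430 and 202, the covariate 499 and 172, both a band 3 median of 0.12, and both 0 genes of the other list in either direction. Leaving out 1 array gave 606 to 974 higher and 314 to 448 lower probes, and 0 to 1 higher and 1 to 6 lower genes of the other list. The replicate block, though the numbers pair nothing, gave 546 higher and 245 lower probes and 1 lower gene of the other list. The shares called over all probes moved too, with 1.52% higher and 69.3% lower under median centring. They were 4.43% and 12.95% after normexp, 12.2% and 2.55% without the filter, and 3.27% and 3.715% with the replicate block. The first run name alone gave 2.46% and 2.685%, and the covariate 3.08% and 2.87%. Leaving out 1 array gave 3.85% to 7.045% higher and 4.6% to 8.98% lower. The causes of these shifts were not tested. Of 28 called members named by rule, 19 kept the call under every alternative in which they were tested. The planned comparison with a neighbouring coding probe was not run, since the files give no positions for NONCODE probes; sequence sharing, the gap to coding probes and the composition results were added after the data were seen.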
